A study of Mus musculus with 4 samples.

Results

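Heat shock proteins of the cytosol and the factors that control them, 10 genes in all, were followed in germinal vesicle stage mouse oocytes, the arrested prophase stage that precedes meiotic maturation. They were chosen by name from the deposited count table: the transcription factors Hsf1 and Hsf2, the HSP90 genes Hsp90aa1 and Hsp90ab1, the HSP70 genes Hspa8, Hspa1a and Hspa2, the HSP110 genes Hspa4 and Hsph1, and the J-domain gene Dnaja1. All 10 were present among the 55453 genes of the table, of which 15868 had enough counts to be tested. The series compared 2 libraries of control oocytes, labelled wild type, with 2 libraries of oocytes labelled as Parp12 knockdown. Oocytes of both groups were separated directly from the ovary. The product of Parp12 belongs to the PARP enzymes, which transfer ADP-ribose onto target molecules. Strain, age, oocytes per library and the method of knockdown are not stated in the labels. Nor do the labels say whether libraries of a group had separate animals as their source, and p-values then reflect only how these libraries vary, which may be technical.

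Heat shock proteins are chaperones, which bind unfolded or unstable proteins and help them fold or stay active. HSP70 takes up clients that J-domain proteins deliver, HSP110 proteins release the nucleotide from HSP70, and HSP90 completes the folding of kinases, receptors and other clients. HSF1 is the factor that switches many heat shock genes on under heat and other protein-damaging stress, by binding repeats of a short element in their promoters. In mouse oocytes HSF1 is known as a maternal factor that is needed for normal meiosis, and Hsp90aa1 is known as one of its targets there. Full-grown oocytes are largely silent in transcription, so their RNA is mostly stored.

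The libraries held between 35805122 and 45230773 counts, with 16598 to 17197 genes detected in each. Parp12 measured 315.7 and 230.1 CPM (counts per 1000000 counts of the library) in control oocytes against 0.752 and 2.40 CPM after knockdown. Its knockdown mean was 0.578% of its control mean, and the quasi-likelihood test of edgeR, a test of count data, gave it an adjusted p of 1.28e-07. With limma-voom the adjusted p was 0.280, so that call was lost; in the other 12 settings tried it was at most 0.000931. Oocyte markers were abundant: the 14 listed genes, among them Gdf9, Bmp15 and the zona pellucida genes, summed to 31858 to 33254 CPM in control and 33615 to 35047 CPM after knockdown, which did not overlap. Of these 14, edgeR called 0. At an unadjusted p under 0.05 it listed Zp1 and Zp2 as higher and Mos as lower, beside 5.51% of all tested genes. Both knockdown libraries were above both controls for 5 of the 14 and below for 2, beside 18.0% and 16.8% of tested genes. The summed level of the 10 heat shock genes was 6021 and 6272 CPM in control and 6341 and 6584 CPM after knockdown. Any link to the oocyte marker sum was not tested. Hsp90aa1 was the largest part, with means of 2893 and 3102.5 CPM in control and knockdown. Of the 10, 7 had log2 fold changes of knockdown over control above 0. The 3 below were Hsp90ab1 (-0.001), Hspa8 (-0.0004) and Hsph1 (-0.016). Of 18 granulosa and cumulus markers, 8 had 0 counts in all 4 libraries, among them Amh and Foxl2, and the whole list reached 500.3 to 609.2 CPM, most of it from Serpine2 (means of 420.1 and 396.2 CPM in control and knockdown). Theca and stroma markers, with Col1a2, Col3a1 and Insl3 at 0, reached 2.58 to 6.45 CPM, and blood and endothelial markers, with Cdh5, Hba-a2, Hbb-bt and Lyz2 at 0, reached 106.8 to 113.8 CPM, mostly Pecam1. Between the groups the summed granulosa list (553.4 to 609.2 CPM in control, 500.3 to 580.8 after knockdown) and theca list overlapped, the blood list was lower after knockdown (106.8 to 111.2 against 112.5 to 113.8), and their part in the values below was not tested. Single markers in these lists went both ways. Both knockdown libraries were below both controls for 1 of 6 tested granulosa, 2 of 4 theca and 1 of 3 blood markers. They were above both controls for 0, 1 and 1, beside 16.8% of all tested genes below and 18.0% above. Among the lower were Cyp11a1 (1.63 and 0.199 CPM in control and knockdown) and Star (2.09 and 0.397). Among the higher were Pdgfra (0.232 and 1.56) and Cd68 (0.537 and 2.56). Of the markers in these lists edgeR called 0, and Cyp11a1 alone was at an unadjusted p under 0.05 (0.0449). In bulk libraries such as these, fewer cells of a type and less RNA per cell cannot be told apart.

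Several of these genes have close copies in the genome, which bears on what a count of 1 gene means. Hspa1a and Hspa1b, the stress-inducible HSP70 pair on chromosome 17, have single-exon transcripts of 2967 and 2803 nucleotides. Their coding sequences were identical in 99.43% of 1926 aligned positions, with 6 substitutions before the last stretch and 1 run of 638 identical bases. Counted from 1 at the first base of the start codon, with the base of Hspa1a first, the first difference was A156G. The bases around it and the last coding bases are shown as examples of how little the coding sequences differ; the other substitutions and the noncoding ends also tell the copies apart. Capitals mark bases that differ or are missing in the other copy, and the strand is minus on GRCm38.
Hspa1a, chr17:34971745-34971795: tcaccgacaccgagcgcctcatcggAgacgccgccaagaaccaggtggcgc
Hspa1b, chr17:34958827-34958877: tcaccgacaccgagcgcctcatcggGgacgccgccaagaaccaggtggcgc
Hspa1a, chr17:34970003-34970059: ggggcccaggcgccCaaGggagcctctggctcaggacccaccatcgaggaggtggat
Hspa1b, chr17:34957082-34957141: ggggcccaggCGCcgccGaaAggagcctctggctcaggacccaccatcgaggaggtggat

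Of all distinct stretches of 50 bases in the annotated transcripts of Hspa1a, 66.3% also occurred in transcripts of another gene, most of them in Hspa1b. The same share was 47.5% for Hsp90aa1, where the partners were Gm12346, Gm5844 and Gm5511, and 39.4% for Hspa8, with 11 partners that each held at least 1% of its stretches. It was 20.6% for Dnaja1, part of it the overlap with Smu1 on the opposite strand, 3.44% for Hsp90ab1, 0.69% for Hsf2, and 0% for Hsf1, Hspa2, Hspa4 and Hsph1. The counts given to such partners came to 0.565% of the gene's own counts for Hsp90aa1, 0.172% for Hspa8 and 0.065% for Hsp90ab1. They came to 52.8% for Dnaja1, nearly all of them Smu1, and to 584.6% for Hspa1a, nearly all of them Hspa1b. The counting of reads with several alignments is not stated. If such reads were left out, the counts of Hsp90aa1, Hspa8, Hspa1a and Dnaja1 are too low by an unknown amount. Dnaja1 also overlaps Smu1 on the opposite strand over 608 exonic nucleotides, and use of strand in the counting is not stated either. Smu1 had 278.8 and 284.7 CPM in control and knockdown, a log2 fold change of 0.03.

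**Figure D1:**
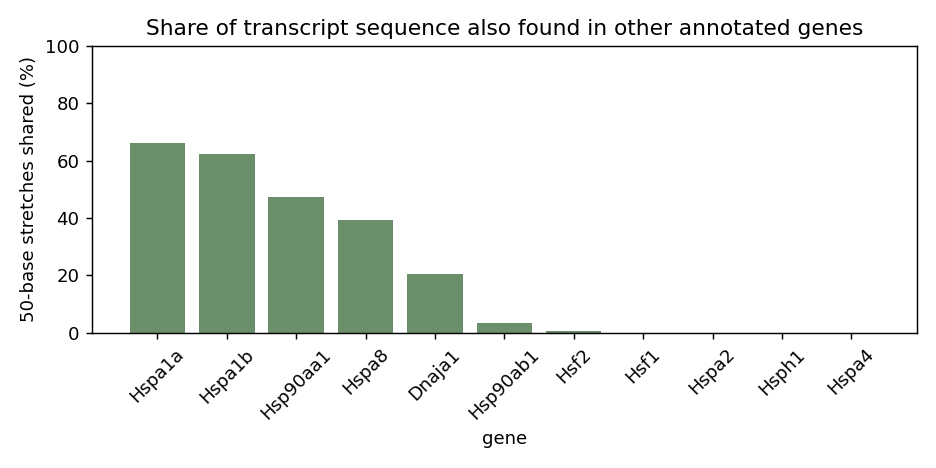
Percent of distinct 50-base stretches of each gene's annotated transcripts (GENCODE release vM21) that also occur in transcripts of another gene; each bar is 1 gene. Hspa1a and its copy Hspa1b share most of their sequence with other genes (66.3% and 62.3%), Hsp90aa1 and Hspa8 47.5% and 39.4%, and Hsf1, Hspa2, Hspa4 and Hsph1 share none.

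Promoter windows from RefSeq (GRCm38.p6, from 250 bases before to 50 after the start) were at hand for 6 of the 10 genes; Hsf1, Hsp90aa1, Hsp90ab1 and Hspa8 were not matched. The letters of the heat shock element were searched on both strands as pairs of inverted units, GAANNTTC and TTCNNGAA, and as triples, in which another inverted unit follows a pair at the same spacing. Each pair reads the same on both strands, and every triple holds both kinds of pair. A pair was in at least 1 window of Hspa1a, Hsph1 and Dnaja1, and in 16.97% of 27025 genes with a window. A triple was in the windows of Hsph1 and in 0.662% of genes. Windows of Hsf2, Hspa2 and Hspa4 held neither. Dnaja1 has 3 starts in the table, and the windows of the other 2 held no pair. Hsph1 has 2 starts; distances below are from the upstream one, and from the other the first pair is 54 bases upstream and the triple 15 bases downstream. The matches of Hspa1a, Hsph1 and Dnaja1 are shown because they differ. Upstream, Hspa1a and Dnaja1 hold GAANNTTC and Hsph1 holds TTCNNGAA, and only Hsph1 has a triple. Capitals mark the matched letters, and a match describes letters only. Any relation of these letters to the level of RNA was not tested.
Hspa1a, 104 bases upstream, chr17:34972238-34972275, minus strand: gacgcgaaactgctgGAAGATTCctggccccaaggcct
Dnaja1, 124 bases upstream, chr4:40722329-40722366, plus strand: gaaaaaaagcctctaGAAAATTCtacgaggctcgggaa
Hsph1, 33 bases upstream, chr5:149636347-149636384, minus strand: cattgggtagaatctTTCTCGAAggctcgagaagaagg
Hsph1, triple 36 bases downstream, chr5:149636287-149636306, minus strand: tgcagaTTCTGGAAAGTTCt
Hspa1b carried the stretch of Hspa1a at the same distance (chr17:34959320-34959357), and the 250 bases upstream of the copies were identical at 247 positions.

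The oocytes held large amounts of RNA for HSP90, constitutive HSP70, HSP110 and Dnaja1, and little for Hsf2. Few counts were given to the inducible Hspa1a and the testis-enriched Hspa2. On a scale of CPM per kilobase of summed exon length, which allows levels of different genes to be compared, the mean of the 4 libraries was 762.6 for Hsp90aa1, 263.4 for Hsp90ab1, 177.2 for Hspa8, 87.2 for Hsph1, 86.7 for Hspa4 and 62.7 for Dnaja1. It was 11.1 for Hsf1, 2.01 for Hsf2, 0.757 for Hspa2 and 0.264 for Hspa1a. Neighbours in this order kept it in all 4 libraries, except Hsph1 and Hspa4, and Hspa2 and Hspa1a, which kept it in 3 of 4 and whose ranges overlapped. Summed exon length joins all annotated transcripts and is long for genes with many of them. With the length of the longest coding transcript instead, a choice made after the data were seen, the level of Hsf1 was 3.37 times as high, that of Hsf2 3.69, Hsph1 1.91, Hspa8 1.80 and Dnaja1 1.53 times, and those of the others at most 1.20 times. Hsp90aa1 stayed highest at 913.7, Hspa8 (318.4) and Hsp90ab1 (313.5) then could not be put in order in every library, and Hsph1 (166.6) stood above Hspa4 (103.8) in 4 of 4.

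**Figure D2:**
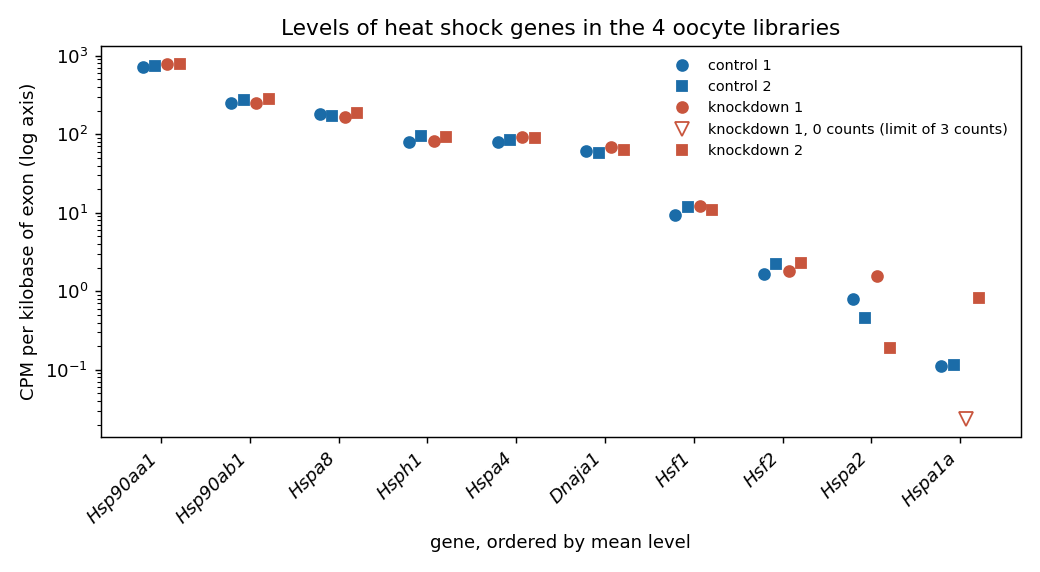
Level of each of the 10 genes in each library, as CPM per kilobase of summed exon length on a log axis; blue marks are controls, red marks knockdowns, circles replicate 1 and squares replicate 2, and the open triangle is a count of 0 drawn at the limit of 3 counts. Hsp90aa1 lies between 724.0 and 792.3, and the marks of the libraries spread widely only for Hspa2 and Hspa1a.

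No heat shock gene passed the test between knockdown and control. All 10 entered it, and edgeR called 0 of them, beside 1 of 15868 tested genes (0.00630%), Parp12 itself. At an unadjusted p under 0.05 edgeR listed 0 of the 10, beside 5.51% of all tested genes. DESeq2 also called 0 of the 10, beside 305 of 16389 genes. At an unadjusted p under 0.05 it listed 3 (Hsp90aa1, Hspa4 and Dnaja1), beside 2173 genes in all. With limma-voom 0 of 15868 genes were called, not even Parp12, so its 0 of the 10 says nothing about them. It listed the same 3 at an unadjusted p under 0.05, beside 746 genes in all. The 95% interval of the fold change excluded a 2-fold change in either direction for 8 of the 10, all but Hspa1a and Hspa2. Over all tested genes the share was 46.7%, but it depends on level. It was 2426 of 2427 genes over 100 CPM, where 6 of the 10 lie, and 81.8% at 10 to 100 CPM, where 2 lie. At 1 to 10 CPM, the level of Hspa2, it was 1.7%, and under 1 CPM, the level of Hspa1a, 0%. The 8 of 10 thus went with level. Of the log2 fold changes 7 were above 0 and 3 below, with a median of 0.11; over all tested genes 8002 were above and 7866 below, with a median of 0.00.

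**Figure D3:**
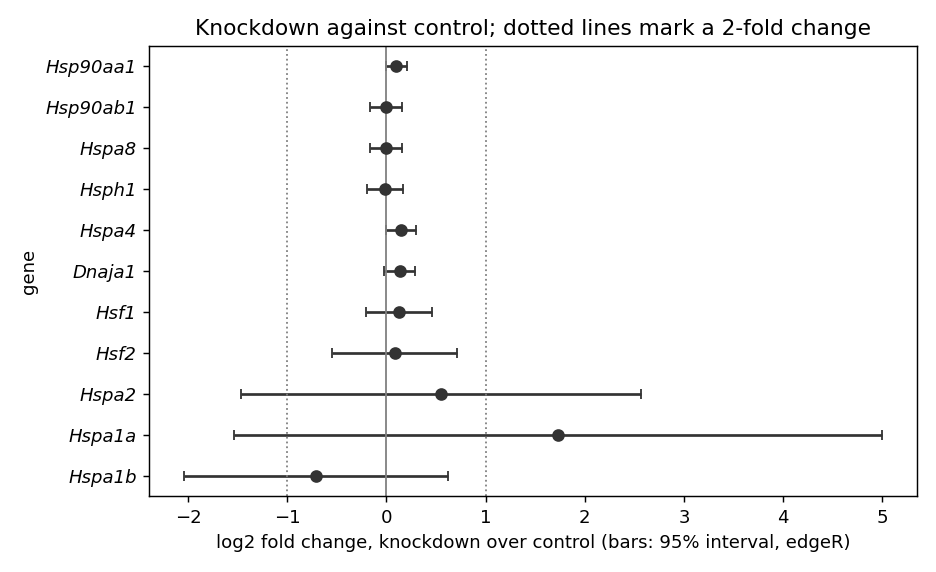
Log2 fold change of knockdown over control for the 10 genes and Hspa1b, with 95% intervals from edgeR (2 libraries a group); the solid line marks no change and the dotted lines a 2-fold change. Intervals are narrow for the abundant genes, such as -0.01 to 0.20 for Hsp90aa1, and wide for Hspa1a (-1.54 to 4.99) and Hspa2 (-1.46 to 2.56).

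Hsp90aa1, the stress-responsive cytosolic HSP90, is at 110690605 to 110702728 of chromosome 12 (mm10, minus strand). By counts it ranked 10th of all genes in these oocytes. It measured 2846 and 2939.9 CPM in control oocytes against 3091 and 3114 CPM after knockdown. Both knockdown libraries were above both controls, and the gap between the groups was wider than that within either. The mean was 2893 ± 66.4 CPM (SD, n = 2) for control oocytes against 3102.5 ± 16.9 CPM after knockdown. The log2 fold change was 0.10 (SE 0.05), with an adjusted p of 0.836 by edgeR, and the interval held no change beyond 1.15-fold. Over the 13 alternative settings the adjusted p ran from 0.0849, by DESeq2, to 0.994.

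Hsp90ab1, the constitutive cytosolic HSP90, is at 45567775 to 45573271 of chromosome 17 (minus strand). Its level was 754 and 826 CPM in control oocytes against 743 and 837 CPM after knockdown. Both control values lay within the range of the knockdown values, with a log2 fold change of 0.00 (95% interval -0.16 to 0.16). Per kilobase, Hsp90aa1 stood above Hsp90ab1 by 2.88 and 2.72 times in the controls and by 3.17 and 2.84 times in the knockdowns. These ratios overlapped between the groups too. The HSP90 pair made up between 59.8% and 60.5% of the counts of the 10 genes in every library.

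Hspa8, the constitutive HSP70 (chromosome 9, 40800984 to 40810087, plus strand), measured 781 and 742 CPM in control oocytes against 713 and 814 CPM after knockdown. The knockdown libraries lay on either side of the controls. The log2 fold change was 0.00 (95% interval -0.16 to 0.16), and no change beyond 1.12-fold lay within it.

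Hspa2, an HSP70 known for its role in male meiosis (chromosome 12, 76404176 to 76406938, plus strand), was scarce and uneven. It took 96 and 50 counts in control oocytes against 177 and 18 after knockdown. That is 2.12, 1.22, 4.16 and 0.503 CPM, so the highest and the lowest values were both in knockdown libraries. Its log2 fold change of 0.55 had an interval from -1.46 to 2.56, and without knockdown replicate 1 it was -1.75.

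Hspa1a, the stress-inducible HSP70 (chromosome 17, 34969190 to 34972156, minus strand), was near the limit of detection. It had 15 and 14 counts in the controls, 0 in knockdown replicate 1, which allows up to 0.0705 CPM, and 88 in knockdown replicate 2. The controls were thus close, at 0.332 and 0.342 CPM, whereas the knockdown libraries were the lowest and the highest of the 4. Hspa1a entered the test through its control counts, and its log2 fold change of 1.73 (95% interval -1.54 to 4.99) turned to -6.87 without knockdown replicate 2 and to -1.29 with limma-voom.

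The copy Hspa1b ran the other way in that library. Hspa1b (chromosome 17, 34956436 to 34959238, minus strand) took 238 and 192 counts in control oocytes against 169 and 71 after knockdown, and its log2 fold change of -0.71 (95% interval -2.04 to 0.62) did not pass. Leaving out knockdown replicate 1 or 2 gave -1.33 and -0.33. Together the copies had 5.59 and 5.03 CPM in control oocytes against 3.97 and 4.44 CPM after knockdown, so the sum spread far less than Hspa1a alone. Hspa1a took 5.93%, 6.80%, 0% and 55.3% of the summed counts in control replicates 1 and 2 and knockdown replicates 1 and 2. With the copies counted as 1 gene the log2 fold change was -0.35, with an adjusted p of 0.960 by edgeR. Because the copies share most of their sequence, the split of reads between Hspa1a and Hspa1b is uncertain. The limit that 3 counts set covers counting error only, since PCR copies are not independent molecules.

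Hspa4 and Hsph1 encode HSP110 proteins, which act as nucleotide exchange factors of HSP70. Hspa4 (chromosome 11, 53259814 to 53300457, minus strand) measured 442 and 467 CPM in control oocytes against 509.9 and 498 CPM after knockdown. Both knockdown libraries were above both controls, with a log2 fold change of 0.15 (SE 0.07) and an adjusted p of 0.836 by edgeR, so the difference did not pass; over the 13 alternatives the adjusted p ran from 0.140, by DESeq2, to 0.994. Hsph1 (chromosome 5, 149614287 to 149636376, minus strand) measured 588 and 685 CPM in control oocytes against 588 and 672 CPM after knockdown. Replicate 2 was the higher library in either group, and the groups covered nearly the same range. Its log2 fold change was -0.02 (95% interval -0.20 to 0.17).

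Dnaja1 encodes a J-domain protein that delivers clients to HSP70 (chromosome 4, 40722150 to 40737149, plus strand). Its level was 525 and 505 CPM in control oocytes against 587 and 545 CPM after knockdown. Both knockdown libraries were above both controls, with a log2 fold change of 0.13 (95% interval -0.02 to 0.29) and an adjusted p of 0.836 by edgeR. The log2 fold change was 0.081 without knockdown replicate 1. In all, 3 of the 10 genes had both knockdown libraries above both controls and 0 had both below, beside 18.0% of tested genes above and 16.8% below, or 34.9% in either direction. The 10 genes together took 0.602% and 0.627% of the counts in the control libraries, and 0.634% and 0.658% in the knockdown libraries.

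Per kilobase, both factors lay below the 6 abundant chaperones and above Hspa2 and Hspa1a. Hsf1 (chromosome 15, 76477422 to 76501913, plus strand) measured 66.3 and 84.5 CPM in control oocytes against 87.0 and 76.7 CPM after knockdown. The control libraries differed from each other by more than the group means did, and the log2 fold change was 0.13 (95% interval -0.21 to 0.46). Hsf2, a second heat shock factor with roles in development and gametogenesis (chromosome 10, 57486385 to 57513135, plus strand), measured 16.1 and 21.2 CPM in control oocytes against 17.4 and 22.3 CPM after knockdown. Its log2 fold change was 0.08 (95% interval -0.55 to 0.71). Per kilobase, Hsf1 stood above Hsf2 by between 4.65 and 6.75 times in the 4 libraries.

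The wider chaperone network was read from the same test over all genes. Of 66 listed genes outside the 10, 49 were tested, and edgeR called 0. At an unadjusted p under 0.05 it listed 0 higher and 1 lower, beside 2.94% and 2.57% of all tested genes. Their log2 fold changes had a median of 0.00, with 23 above 0 and 26 below. Of their intervals 43 excluded a 2-fold change, beside 46.7% of all tested genes, a share that depends on level. DESeq2 called 1 of 50, Fkbp5, beside 305 of 16389 genes. With limma-voom 0 of all tested genes were called, so its 0 here says nothing about these lists.

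Among 16 tested HSP90 co-chaperones, 6 were above 0 and 10 below, with a median log2 fold change of -0.02. Fkbp5, an immunophilin that binds HSP90 in steroid receptor complexes, had the smallest p. It measured 364.8 ± 1.86 CPM (SD, n = 2) in control oocytes against 319.98 ± 6.003 CPM after knockdown. Its log2 fold change was -0.19 (SE 0.08), with an adjusted p of 0.836 by edgeR and 0.0306 by DESeq2; the other 12 settings gave 0.637 to 0.994. The most abundant per length was Nudc, a dynein-associated partner of HSP90, at 601.7 ± 19.8 CPM per kilobase in the controls and 587.0 ± 35.5 in the knockdowns.

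Among 12 tested J-domain genes, 3 were above 0 and 9 below, with a median of -0.03. Dnaja2, a close relative of Dnaja1, was the most abundant per length, at 499.6 ± 19.1 and 494.1 ± 28.7 CPM in control and knockdown. Dnaja4 had the smallest p, at 101.7 ± 0.959 and 88.9 ± 6.14 CPM. For HSP70 partners, the 7 tested genes had a median of 0.09, with 5 above 0. Bag1, a nucleotide exchange factor of HSP70, had 24.4 ± 1.22 and 33.1 ± 3.58 CPM, a log2 fold change of 0.44 (95% interval -0.05 to 0.94). St13, an adaptor between HSP70 and HSP90, had 249.4 ± 15.6 and 266.1 ± 9.08 CPM.

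Of 7 other HSP70 genes 5 were tested, with a median of -0.44, 2 above 0 and 3 below. Hspa14, an HSP70 that works at the ribosome, was the most abundant of them per length (Hspa4l was higher in CPM) and had the smallest p, at 58.8 ± 6.23 CPM in control oocytes against 44.1 ± 12.6 CPM after knockdown. Its log2 fold change was -0.44 (95% interval -0.88 to 0.00) and did not pass; it was -0.15 without knockdown replicate 1 and -0.74 without knockdown replicate 2. Of 9 small heat shock protein genes, 6 had 0 counts in all 4 libraries and 2 were tested. Hspb1 had 7.30 ± 1.45 and 7.04 ± 2.68 CPM, and Hspb6 4.70 ± 0.544 and 7.27 ± 1.41 CPM. The 3 tested genes among other heat shock factors and their binders had a median of 0.18, and Hsbp1, which binds HSF1, had 89.5 ± 2.81 and 102.4 ± 15.5 CPM. The 4 mitochondrial chaperones had log2 fold changes above 0, between 0.03 and 0.20. Hspd1, the mitochondrial chaperonin, had 166.1 ± 6.92 and 189.6 ± 22.5 CPM, and Hspa9, the mitochondrial HSP70, 476.1 ± 30.6 and 489.8 ± 18.3 CPM.

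**Figure D4:**
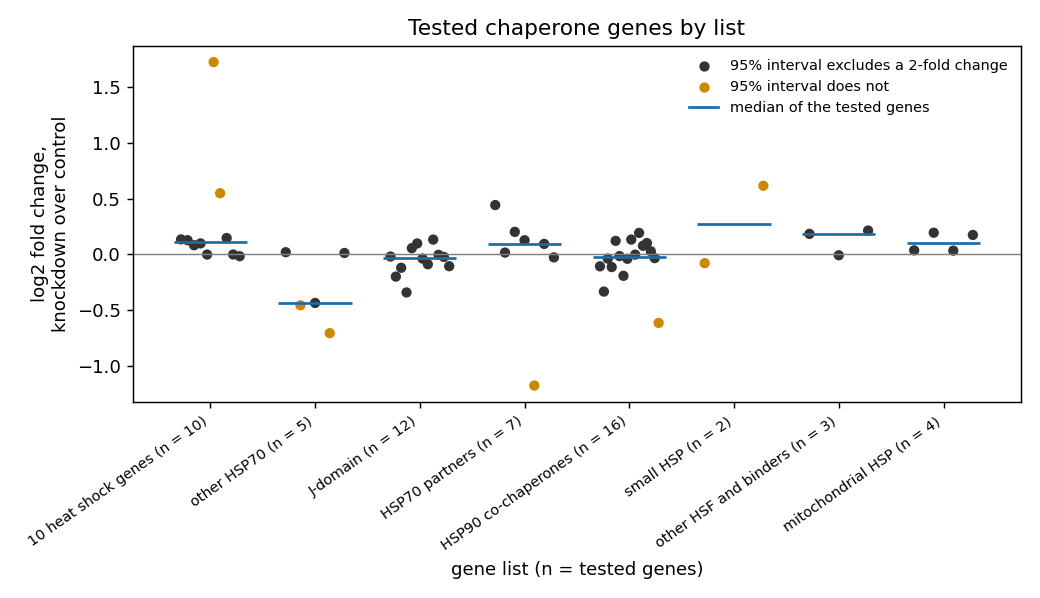
Log2 fold change of knockdown over control for every tested gene of the 10 heat shock genes and 7 wider lists, with 1 point per gene and a line at each list's median; dark points have a 95% interval that excludes a 2-fold change. Most points lie near 0, and the points farthest from 0 have intervals that include a 2-fold change.

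Genes known to be switched on by HSF1 under stress were listed separately, and 5 of the 20 are among the 10 genes above (Hsp90aa1, Hspa8, Hspa1a, Hsph1 and Dnaja1). Nearly all of the others are in the wider lists, so this list mostly counts the same values again. Of the 19 tested, edgeR called 0, beside 1 of all 15868 tested genes. At an unadjusted p under 0.05 it listed 0, beside 5.51% of all tested genes. Of their log2 fold changes 11 were above 0 and 8 below, with a median of 0.03. Bag3, whose induction by HSF1 is strong in many cells, had 1 count in control replicate 1 and 0 in the other libraries, and was not tested. Dnajb1, another inducible J-domain gene, measured 198.6 ± 20.9 CPM in control oocytes against 182.3 ± 12.8 CPM after knockdown.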

How the data were processed

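Messenger RNA of 4 oocyte libraries was read from the authors' deposited table of raw counts per gene, with groups and replicates taken from the sample titles. Per the file headers, the table lists exon coordinates, strand and summed exon length, another deposited column used here for levels. The submitters' processing notes list, without roles, the mm10 build and the tools featureCounts 2.0.0, STAR 2.7.5b, DESeq2 1.28.1 and Trim Galore 0.6.4; strand, multi-mapping and fragment settings are not given there. The coordinates of the 10 genes, Hspa1b and Parp12 were the same in GENCODE vM21. The table had 0 sample columns outside the series and 0 entries without a gene name.

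Testing used edgeR 4.0.16 (R 4.3.3): filterByExpr (minimum count 10, minimum total 15), TMM scaling, a robust quasi-likelihood fit with 1 term for the group, and a two-sided test at a Benjamini-Hochberg adjusted p of 0.05 across the tested genes. An exact permutation test of 2 against 2 cannot go under 0.333 and was not run. The SE came from the F statistic. A count of 0 was read as up to 3 counts. Replicate pairs differed by a chi-square of 38.0 (controls) and 32.6 (knockdowns) per degree of freedom, so neither pair was 1 library in 2 copies. The scripts were tested on simulated data. The 10 genes and the lists were chosen with earlier results of these data known; lists were described by counts and medians only. Named were the 10 genes, Parp12, Hspa1b and, per list, the gene with the smallest p and the most abundant per length. Smu1, Pecam1, Serpine2, Bag3, Dnajb1, Hspa4l, Zp1, Zp2, Mos, Cyp11a1, Star, Pdgfra, Cd68 and the zero-count markers were named after their values were seen. No search for genes of like pattern was made, since 4 libraries are too few. Alternatives were other scaling factors, filters, DESeq2 1.42.0, limma-voom (limma 3.58.1), edgeR's legacy fit, omission of each library, a block for the replicate number, summing Hspa1a with Hspa1b, and other lengths for levels.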

Additional observations from a re-analysis of the deposited data

How the results depend on the processing

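Levels of Hspa1a and Hspa2 rest on few counts. None of the 10 genes was called under the 13 alternative settings, though the filter of 1 CPM left Hspa1a untested. Genes called in all numbered 1, but 8 with a filter of 1 CPM, 305 with DESeq2 (175 higher, 130 lower), 0 with limma-voom (746 at an unadjusted p under 0.05) and 1 to 2 on leaving out each library (2 without knockdown replicate 1). Of the wider lists DESeq2 called 1 gene, Fkbp5. Parp12 was at -7.73 (adjusted p = 0.280) with limma-voom, and at -8.51 to -6.83 on leaving out each library. The labels do not say whether same-numbered libraries were paired. Deviations of same-numbered libraries correlated at 0.000127 over tested genes and at 0.0155 over those with a mean over 10 CPM. A low value cannot show that the libraries were unpaired. With the replicate number as a block 1 gene and 0 of the 10 were called. The Hsp90aa1 to Hsp90ab1 ratio of 2.90 was 3.80 without division by length.

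Of 130 alternative log2 fold changes of the 10 genes, 111 kept their direction and 19 turned. With library totals Hsp90ab1 was at 0.00057 and Hspa8 at 0.0019, without a filter at 0.0022 and 0.0026, and Hspa8 at 0.0015 with the legacy fit. With limma-voom Hspa1a was at -1.29 and Hspa2 at -0.0047, and Hspa1a summed with Hspa1b was at -0.35. On leaving out each library the ranges were -0.029 to 0.29 for Hsf1, -0.096 to 0.27 for Hsf2, -0.088 to 0.086 for Hsp90ab1, -0.098 to 0.096 for Hspa8, -6.87 to 2.86 for Hspa1a, -1.75 to 1.29 for Hspa2 and -0.11 to 0.085 for Hsph1. Of 195 values of the other named genes 186 kept their direction and call, 8 turned, and Fkbp5 passed with DESeq2. Those that turned did so on leaving out a library, with ranges of -0.078 to 0.043 for Dnaja2, -0.10 to 0.024 for Nudc, -0.50 to 0.30 for Hspb1 and -0.038 to 0.12 for Hspa9. Without turning, values on leaving out each library moved by over 1.5 times for Dnaja1 (0.081 to 0.19), Hspa1b (-1.33 to -0.33), Hspa14 (-0.74 to -0.15), Dnaja4 (-0.27 to -0.12), Hsbp1 (0.030 to 0.34), Hspd1 (0.066 to 0.31), St13 (0.044 to 0.15), Egr1 (-0.52 to -0.23) and Dusp1 (-0.12 to -0.045). Beyond the fewer libraries or genes in some settings, the cause was not tested.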

Other observations

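Immediate early genes, which respond within minutes to handling and other stimuli, were read as a second stress list. Of 15 listed, 9 were tested and edgeR called 0, beside 1 of all 15868 tested genes. At an unadjusted p under 0.05 it listed 0, beside 5.51% of all tested genes. The log2 fold changes were above 0 for 1 and below 0 for 8, beside 8002 above and 7866 below over all tested genes. The median was -0.27, and a 2-fold change lay outside only 2 of the 9 intervals. Jun, Myc and Nr4a1 had 0 counts in all 4 libraries, and Fos had 3 counts in control replicate 1 and 0 in the others; these genes were picked after their values were seen. Egr1, a transcription factor, measured 54.9 ± 3.56 CPM (SD, n = 2) in control oocytes against 42.6 ± 6.04 CPM after knockdown. Its log2 fold change was -0.38, with an adjusted p of 0.836 by edgeR, 0.253 by DESeq2 and 0.886 by limma-voom; over the 13 alternatives it ran from 0.253 to 0.994. The log2 fold change was -0.23 without knockdown replicate 1 and -0.52 without knockdown replicate 2. Dusp1, a phosphatase of MAP kinases, had 41.2 ± 0.923 and 39.0 ± 1.12 CPM.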
